A study of Mus musculus with 7 samples.

Results

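The p53 family of the mouse has 3 genes, Trp53, Trp63 and Trp73, and all 3 were found by symbol among 21887 protein-coding genes of the RefSeq table of GRCm38.p6. For each one, every peak over the whole gene and 50 kb on each side was taken from 4 deposited peak lists. The lists come from chromatin immunoprecipitation and sequencing (ChIP-seq) of globose basal cells (GBCs), the dividing progenitors of the olfactory epithelium. There were 2 libraries of H3K27me3, the Polycomb mark of repressed genes, and 2 of H3K27ac, which marks active promoters and enhancers. All libraries came from adult wild-type mice in which methimazole had destroyed the olfactory epithelium 7 to 10 days earlier. Each replicate pooled cells of 3 mice, which were enriched with an antibody to the receptor c-Kit and magnetic selection. No untreated group is among the samples, the 3 input libraries were not analysed here as peaks, and read depth is unknown.

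The family proteins bind the same kind of DNA element and act as transcription factors. p53 halts division or triggers cell death after DNA damage and is held in check by the ubiquitin ligase Mdm2. p63 maintains the stem cells of stratified epithelia, and in the olfactory epithelium it keeps horizontal basal cells, the reserve stem cells beneath the GBCs, at rest. Trp63 and Trp73 each have a promoter at the gene start for forms with a transactivation domain (TA) and an internal promoter for forms without it (delta N). The delta N form is the main p63 form of basal epithelial cells. p73 is known for its work in multiciliated cells and in the nervous system.

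The 3 genes differed in how much of each mark they carried. Trp73 lay under a long stretch of H3K27me3, Trp53 had strong H3K27ac at its start, and Trp63 was nearly bare of both marks. Over the gene alone, 44.3% and 61.8% of all genes had a lower share of bases under H3K27me3 than Trp63, in replicates 1 and 2. With 50 kb on each side, 11.3% and 25.0% did. Within 1 kb of either gene end, peaks of both H3K27me3 libraries were found at 1 of the 3 genes, Trp73, against 28.7% of all protein-coding genes. Peaks of both H3K27ac libraries were found there at 2 of the 3, Trp53 and Trp73, against 60.8% of all genes. A base inside the gene was covered in both H3K27me3 libraries at Trp63 and Trp73 (32.3% of all genes) and in both H3K27ac libraries at all 3 (65.4%). With 50 kb on each side, all 3 genes had such a base for each mark, as did 67.6% of all genes for H3K27me3 and 79.5% for H3K27ac. With 2 libraries a mark, an exact permutation test of 1 mark against the other cannot give a p below 0.333, so values are described and not tested.

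Trp63 spans 208.3 kb of chromosome 16, from 25683763 to 25892088, and is read toward higher coordinates, which is background knowledge since its strand was not taken from a table here. No library had a peak within 1 kb of either end of the gene, and none had a peak in the 50 kb on either side. H3K27me3 replicate 1 had 1 peak in the gene and replicate 2 had 2. H3K27ac also had 1 peak in replicate 1 and 2 in replicate 2. All 6 peaks were between 225 and 656 bp long and lay beyond the midpoint of the gene, at 25787925. The part beyond the midpoint also holds the internal delta N promoter, but no library had a peak from the midpoint to 25843707. Transcript starts inside Trp63 were not used here. Whether any peak lies near the delta N start is thus not known, and the distance to it is not given.

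**Figure D1:**
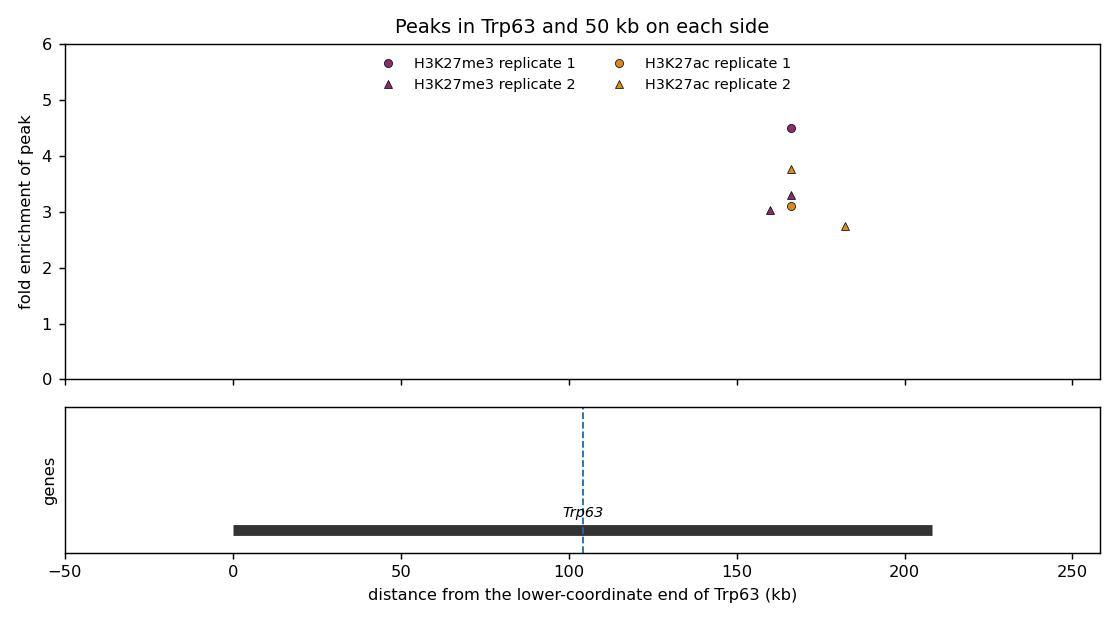
Peaks in Trp63 with 50 kb on each side, by distance from the lower-coordinate end of the gene (kb) and fold enrichment, with circles for replicate 1 and triangles for replicate 2 of each mark, bars for the length of a peak and a dashed line at the midpoint of the gene. The 6 peaks lie beyond the midpoint, and 4 of them, 1 from each library, stand at the same place.

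A single place in Trp63 was covered in every library. The H3K27me3 peaks there ran from 25849641 to 25850054 in replicate 1 and from 25849773 to 25850275 in replicate 2, at a fold enrichment of 4.49 and 3.30 over background. The H3K27ac peaks ran from 25849800 to 25850333 and from 25849702 to 25850197, at 3.11 and 3.76. These are the authors' own values for each peak, and the median over all peaks was 3.46 and 3.21 in the H3K27me3 lists and 3.61 and 3.43 in the H3K27ac lists. The H3K27me3 peak of replicate 1 stood above its median, in a list where 76.6% of peaks were under a fold of 4. For H3K27me3 the −log10 q was 3.75 in replicate 1 and 1.71 in replicate 2, and for H3K27ac it was 2.31 in replicate 1 and 2.51 in replicate 2, in lists that start just above 1. The bases shared by all 4 libraries ran from 25849800 to 25850054, a stretch of 255 bp that lay 166.2 kb from the gene start and 42.2 kb from its end, 79.8% of the way along.

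The other peaks in Trp63 were each seen in 1 library. An H3K27me3 peak of replicate 2 lay 160.1 kb from the gene start at a fold enrichment of 3.03 and a −log10 q of 1.34. An H3K27ac peak of replicate 2 lay 182.2 kb from the start, at 2.74 and 1.02. Neither had a counterpart in replicate 1. Between 25533378 and 25843707 no library had a peak, a stretch of 310.3 kb that takes in the gene start and the first 76.8% of the gene. Of 177630 such stretches between peaks of the 4 libraries, 623 were longer, and the median was 3.06 kb. The stretch was picked because it holds the gene start, and a long stretch is more likely to hold any given place. Its rank among stretches counted once each therefore does not measure how unusual the place of Trp63 is. Mappability was not analysed here, so the lack of a peak and a shortage of placed reads cannot be told apart.

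Stretches with both marks were not rare in these lists. A base covered in all 4 libraries was found in 2 of the 3 genes, Trp63 and Trp73, and in 17.5% of all protein-coding genes. The pattern of Trp63, such a base inside the gene and no peak of any library within 1 kb of either end, was found in 107 genes or 0.489%. The pattern was taken from the peaks of Trp63 itself, so this share is a description only. The lists held 7052 stretches covered in all 4 libraries, with a median length of 558 bp, and 25.8% of them were shorter than the stretch in Trp63. Of these stretches 43.2% lay within 1 kb of the end of a protein-coding gene, and 33.9% lay inside a gene and away from all ends, as in Trp63. The highest of the 4 folds was 4.49 in Trp63, against a median of 5.78, and 25.2% of stretches had a lower one. The labels give H3K27me3 replicate 1 and H3K27ac replicate 2 the same input library, so these peak lists are not fully independent. In a pool of cells, both marks on the same chromatin and 1 mark in each of 2 kinds of cell cannot be told apart. With only peaks whose −log10 q was 2 or more, the H3K27me3 peak of replicate 2 in Trp63 is lost. No base in the windows of any of the 3 genes was then covered in all 4 libraries.

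Trp73 spans 83.6 kb of chromosome 4, from 154056249 to 154139875, and is read toward lower coordinates. RefSeq gives it a start at the gene end and a second start 42.7 kb inside, 51.1% of the way along, which lies where an internal promoter for delta N forms would be sought, although the promoter table does not name the forms. Because the marks differed at these starts, the bases from 250 before to 30 after each one are shown, from RefSeq on GRCm38.p6, 5′ to 3′ on the minus strand, with capitals for the motifs described next. They lie at chr4:154139846-154140125 and chr4:154097144-154097423.
Trp73 gene start: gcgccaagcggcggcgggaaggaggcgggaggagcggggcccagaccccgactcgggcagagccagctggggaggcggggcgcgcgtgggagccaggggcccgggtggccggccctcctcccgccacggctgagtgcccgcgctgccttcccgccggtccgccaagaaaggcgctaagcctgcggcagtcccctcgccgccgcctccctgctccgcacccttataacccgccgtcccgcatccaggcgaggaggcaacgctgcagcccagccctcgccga
Trp73 internal start: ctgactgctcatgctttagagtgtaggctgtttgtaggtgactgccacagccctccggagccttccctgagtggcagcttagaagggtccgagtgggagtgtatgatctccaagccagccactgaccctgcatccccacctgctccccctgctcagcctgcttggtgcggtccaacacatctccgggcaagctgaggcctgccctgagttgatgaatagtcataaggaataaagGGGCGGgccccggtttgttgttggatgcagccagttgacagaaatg

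The sequence at the gene start of Trp73 is rich in CpG, and that at the internal start is not. It holds 34 CpG dinucleotides and is 76.8% G or C, against 6 and 57.1% at the internal start. Over 32851 RefSeq promoters in windows of 280 bases the median was 6 CpG and 52.5% G or C, and 94.1% had fewer CpG than the gene start of Trp73. Promoters under H3K27me3 in both libraries had a median of 13 CpG, and those under H3K27ac of 19. Both strands were searched for the GC box GGGCGG, the CCAAT box CCAAT, the TATA box TATAAA and the E-box CACGTG, which 34.7%, 36.1%, 13.1% and 6.79% of promoters hold. The internal start had 1 GC box, just before the start, and the gene start had none of the 4 motifs. A match is a description of letters and not of a bound site.

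H3K27me3 was strongest at the gene start of Trp73. The peak over it reached a fold enrichment of 10.6 in replicate 1, from 154138071 to 154142802, and of 6.11 in replicate 2, from 154132279 to 154141731. The −log10 q of these peaks was 16.7 and 6.49. Weak H3K27ac peaks lay at the same place, at a fold enrichment of 2.93 in replicate 1 and 3.1 in replicate 2. In replicate 1 the H3K27ac peak covered the whole 300 bases of the promoter window, and in replicate 2 it reached 48 of them and ended 0.202 kb before the gene start. A stretch of 627 bp before the start, from 154140078 to 154140704, was covered in all 4 libraries.

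The internal start of Trp73 lay inside the longest H3K27me3 peak of the gene in both libraries. That peak ran for 21.7 kb in replicate 1, from 154086338 to 154108023, and for 16.9 kb in replicate 2, from 154085105 to 154102039, at a fold enrichment of 4.41 and 3.54. H3K27ac replicate 1 had a peak of 2.80 that covered 232 of the 300 bases of the internal promoter window, and replicate 2 had none there. Peaks of both H3K27me3 libraries thus reached 2 of the 3 promoter windows matched to the family, both of Trp73, against 16.3% of all RefSeq promoter windows. Trp63 has no window among the 3, so these counts describe Trp53 and Trp73 only. Peaks of both H3K27ac libraries reached 2 of the 3, the starts of Trp53 and Trp73, against 44.7%, and both marks reached 1, the start of Trp73, against 7.14%.

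H3K27me3 ran along most of the Trp73 gene. There were 15 peaks in the gene in replicate 1 and 14 in replicate 2, with a fold enrichment of 3.03 to 10.6 and of 2.84 to 6.11, and 13 and 12 of them overlapped a peak of the other replicate. They covered 66.8% and 67.9% of the gene, more than in 94.9% and 95.7% of all protein-coding genes. Joined across gaps of up to 3 kb, the peaks formed a domain of 70.8 kb in replicate 1, which began beyond the far end of the gene and ended 16.8 kb from its start, and of 61.6 kb in replicate 2, which ended 25.4 kb from the start. Only 95 of 59341 domains in replicate 1 and 109 of 42103 in replicate 2 were longer. A second domain, of 11.5 and 9.45 kb, held the gene start, and replicate 2 had another of 5.68 kb between them.

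H3K27ac inside Trp73 was sparse. Replicate 1 had 6 peaks in the gene and replicate 2 had 3, which covered 6.43% and 2.59% of it. The highest lay 17.3 kb from the gene start, from 154121817 to 154123319 in replicate 1 and from 154121967 to 154123188 in replicate 2, at a fold enrichment of 4.65 and 3.93. It was the single place in the gene where a stretch, of 840 bp, was covered in all 4 libraries.

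**Figure D2:**
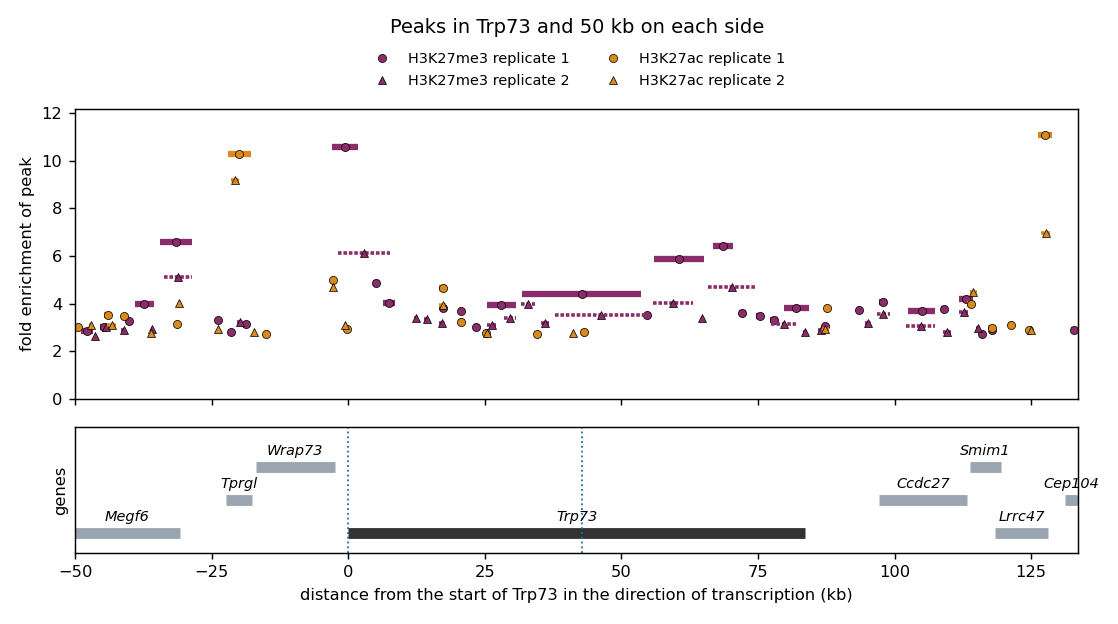
Peaks in Trp73 with 50 kb on each side, by distance from the gene start in the direction of transcription (kb) and fold enrichment, with circles for replicate 1 and triangles for replicate 2, bars for the length of each peak, and dotted lines at both RefSeq starts. H3K27me3 peaks line most of the gene and are highest at its start (10.6 and 6.11), while the high H3K27ac peaks stand over the neighbours Tprgl and Lrrc47.

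H3K27ac at the neighbours of Trp73 ranged from strong to weak. Wrap73, which encodes a WD repeat protein, has the nearer edge of its annotated span 2.48 kb from the start of Trp73. H3K27ac peaks of 5.0 and 4.71 stood just inside that edge. The H3K27me3 peak at the start of Trp73 reached past this edge into Wrap73 in replicate 1 and stopped within 1 kb of it in replicate 2. At the other side Lrrc47 had H3K27ac at a fold enrichment of 11.1 and 6.98, and H3K27me3 at its ends in replicate 1 alone (2.92). Smim1 and Ccdc27 lie side by side and share peaks of both marks (H3K27me3 4.18 and 3.64, H3K27ac 4.00 and 4.5), and Megf6 carried H3K27me3 at 6.59 and 5.12 and H3K27ac at 3.17 and 4.04.

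Trp53 spans 11.5 kb of chromosome 11, from 69580348 to 69591873, and is read toward higher coordinates. Its start lies 97 bp from the end of the annotated span of Wrap53, which encodes a protein of Cajal bodies and telomerase and is read in the opposite direction in the RefSeq table. The H3K27ac peak over this start was the strongest peak in any of the 3 genes. It ran from 69578612 to 69582046 in replicate 1 and from 69578343 to 69582460 in replicate 2, at a fold enrichment of 11.1 and 9.23 and a −log10 q of 40.1 and 18.2. Since the peak covers the starts of both genes, acetylation of Trp53 and of Wrap53 cannot be told apart. The bases from 250 before to 30 after the RefSeq start of Trp53, at chr11:69580109-69580388 on the plus strand, all lay under this peak in both libraries and are shown for comparison with Trp73.
Trp53 start: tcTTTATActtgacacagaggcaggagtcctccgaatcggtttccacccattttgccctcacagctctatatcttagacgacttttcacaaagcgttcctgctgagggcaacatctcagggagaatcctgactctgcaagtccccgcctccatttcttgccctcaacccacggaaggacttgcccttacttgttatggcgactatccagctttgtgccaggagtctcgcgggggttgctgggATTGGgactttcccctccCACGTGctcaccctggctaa

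The Trp53 sequence was poorer in CpG than the gene start of Trp73, with 10 CpG and 53.6% G or C. Capitals mark a TATA box on the other strand at the far end of the window from the start, a CCAAT box on the other strand just before the start, and an E-box just after it. H3K27me3 had no peak over this window in either library. Inside the gene H3K27me3 had 2 peaks in replicate 1, of 199 and 881 bp at a fold enrichment of 2.94 and 2.92, and 0 in replicate 2. These covered 9.37% of the gene in replicate 1. H3K27me3 replicate 1 had peaks at the ends of more genes than replicate 2 overall (46.5% against 31.6% of all genes), and the part of this in the difference at Trp53 was not tested.

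Further H3K27ac in Trp53 was weak. Of 4 peaks in the gene in replicate 1 and 3 in replicate 2, the peak over the start stood at 11.1 and 9.23, and the others between 2.75 and 3.71. At the far end, a peak of 3.71 in replicate 1 reached into the gene, and its counterpart of 3.35 in replicate 2 began 0.101 kb beyond it.

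**Figure D3:**
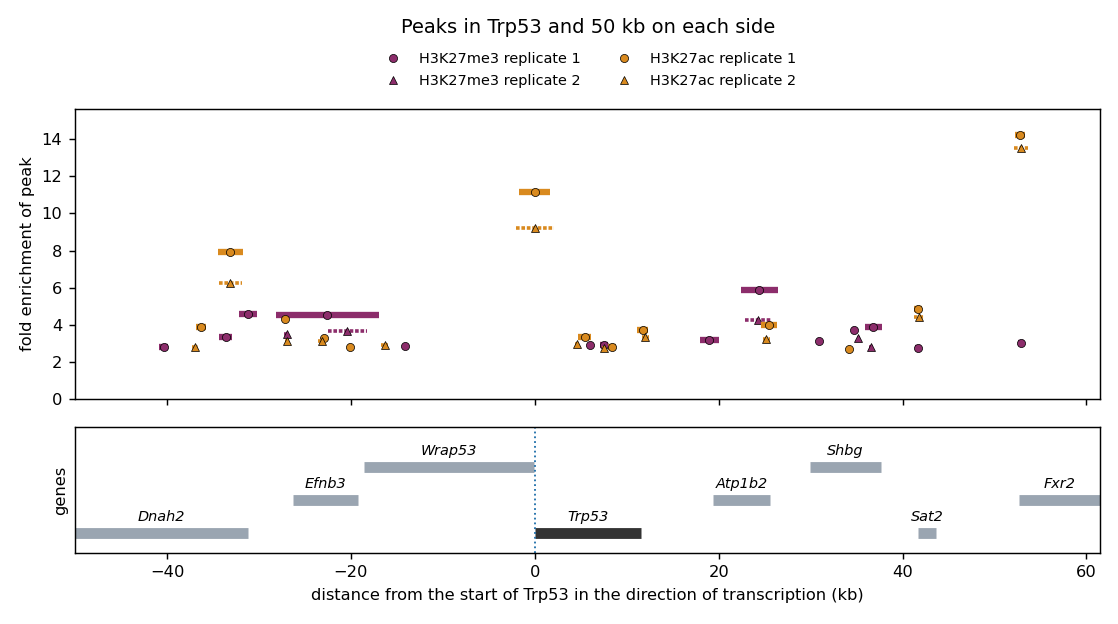
Peaks in Trp53 with 50 kb on each side, by distance from the gene start in the direction of transcription (kb) and fold enrichment, with circles for replicate 1 and triangles for replicate 2, bars for the length of each peak, and a dotted line at the RefSeq start. H3K27ac stands over the start at 11.1 and 9.23, and H3K27me3 peaks lie on both sides of Trp53 over Efnb3 and Atp1b2.

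H3K27me3 flanked Trp53 on both sides without a peak at its ends. On the side of its start the nearest H3K27me3 peaks lay 14.0 kb away in replicate 1 and 18.3 kb away in replicate 2, and on the other side 6.45 and 11.3 kb away. Peaks of 4.51 and 3.68 lay over Efnb3, the gene of an ephrin ligand, and reached the far end of Wrap53. Peaks of 5.89 and 4.27 lay over the higher-coordinate edge of Atp1b2, a sodium pump subunit gene, where H3K27ac stood at 4.00 and 3.24. Shbg, the gene of a sex steroid carrier, carried H3K27me3 and no H3K27ac at its ends (3.91 and 2.78). Fxr2, which encodes an RNA-binding protein, had the highest H3K27ac fold in the window, 14.2 and 13.5.

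Over the gene with 50 kb on each side, H3K27me3 peaks covered 47.5% and 44.1% of the bases at Trp73, 23.7% and 7.53% at Trp53 and 0.134% and 0.236% at Trp63, in replicates 1 and 2. Their means were 45.8% ± 2.42, 15.6% ± 11.5 and 0.185% ± 0.0720 (SD, n = 2), and the libraries of the 3 genes did not overlap. Over the gene alone they overlapped at Trp53 and Trp63, where H3K27me3 covered 9.37% and 0% against 0.199% and 0.349%.

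H3K27ac covered 14.6% and 13.1% of the bases at Trp53, 12.7% and 7.49% at Trp73 and 0.173% and 0.374% at Trp63 over the same windows. Trp53, at 13.9% ± 1.06, and Trp73, at 10.1% ± 3.70, differed by about the spread between replicates (SD, n = 2), although their libraries did not overlap. Over the gene alone Trp53 stood above Trp73, with 38.5% and 27.1% against 6.43% and 2.59%, and Trp63 was lowest at 0.256% and 0.553%. A short gene with a peak at its start has a high covered share, so the lengths of these genes bear on this order.

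**Figure D4:**
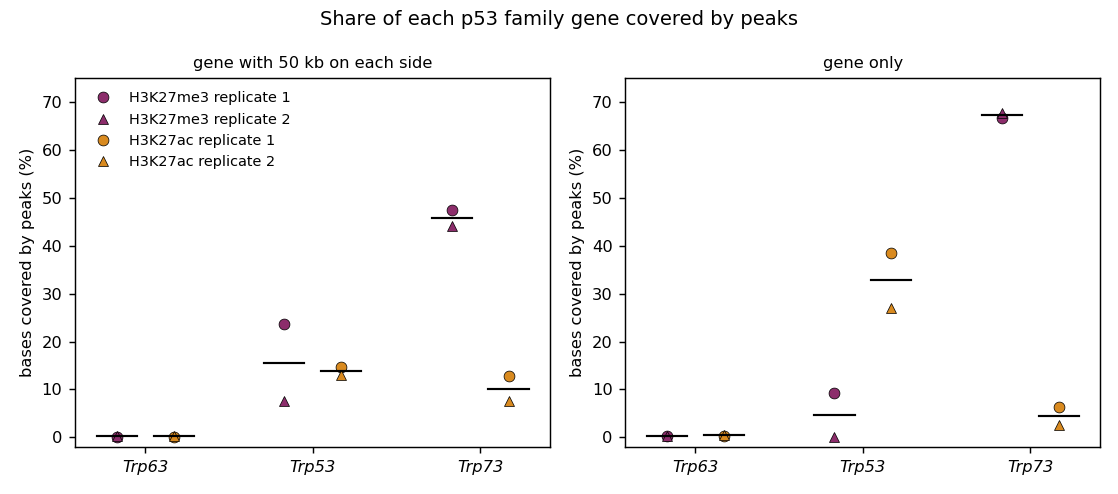
Share of bases covered by peaks (%) in each p53 family gene with 50 kb on each side (left) and in the gene alone (right), with circles for replicate 1, triangles for replicate 2 and black lines for the mean of the 2 libraries. Trp73 is highest for H3K27me3, Trp53 is highest for H3K27ac in the gene, and Trp63 is close to 0 for both marks.

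Against all protein-coding genes, 44.3% and 61.8% had a lower covered share of the gene than Trp63 for H3K27me3, in replicates 1 and 2, where the median was 0.787% and 0%. For H3K27ac 30.8% and 34.7% were lower. Among the 2429 genes of 100 kb or more, the covered share of the gene was lower than in Trp63 in 20.5% and 41.1% for H3K27me3 and in 17.9% and 29.2% for H3K27ac, in replicates 1 and 2. The median long gene had 0.935% and 0.585% of its bases under H3K27me3 and 1.94% and 1.67% under H3K27ac. Over bases covered in both H3K27me3 libraries, 68.6% of all genes and 46.2% of these long genes were lower than Trp63. With 50 kb on each side, 7.25% and 20.1% of the long genes were lower for H3K27me3 and 11.5% and 18.6% for H3K27ac.

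Genes most like each family member were taken as those with the smallest Euclidean distance in the covered share of the gene over the 4 libraries, among genes within 1.5 times its length. For Trp63 these were Stk3, Kctd16, Chst9, Pign and Rsu1 of 1066 genes, at 0.190 to 0.324 percentage points, and each of them carried H3K27ac at a gene end in both libraries, which Trp63 did not. For Trp53 they were E2f1, F2r, Ecscr, Yif1b and Zfp629 of 4266 genes, at 2.37 to 4.03 points. Of these, E2f1 and Yif1b carried H3K27me3 at a gene end in both libraries, which Trp53 did not. E2f1 encodes a transcription factor of the cell cycle, and it had 9.11% and 0% of its bases under H3K27me3 and 38.9% and 29.4% under H3K27ac. For Trp73 they were Grip2, Tmem132e, Cfap77, Vwa5b1 and Mpped1 of 2668 genes, at 4.61 to 9.41 points. Only Cfap77 among them carried H3K27ac at a gene end in both libraries, as Trp73 did, and it alone lacked H3K27me3 there. Grip2, the gene of a synaptic scaffold protein, had 65.7% in each H3K27me3 library and 3.52% and 0% under H3K27ac. These lists rest on covered length alone.

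In the lists that follow, a gene carries a mark where both of its libraries had a peak within 1 kb of a gene end, as 28.7% of all genes did for H3K27me3 and 60.8% for H3K27ac. Of 22 regulators and partners of p53, 21 carried H3K27ac and 2 carried H3K27me3. The median covered share of the gene was 0% for H3K27me3 and 5.58% for H3K27ac, against 0.652% and 3.95% over all genes. Mdm2 and Ppm1d, which restrain p53, stood at a fold enrichment of 18.3 and 13.2 and of 15.7 and 13.2, and the damage kinase gene Atm at 12.1 and 6.87, all with H3K27ac alone. Usp7, a deubiquitinase that acts on Mdm2, had 3.40 and 3.11 at its ends and 14.3 and 7.65 inside the gene. Cdkn2a, whose Arf product blocks Mdm2, carried H3K27me3 at 12.3 and 8.04 and H3K27ac at 3.65 and 3.23, and Trp53bp1, a damage response gene, carried both marks at its ends at 2.99 to 4.49 and had H3K27ac inside the gene at 14.2 and 9.26. Mdm4, a partner of Mdm2, had no peak within 1 kb of its ends, but had H3K27ac inside the gene at 9.29 and 8.64. With H3K27me3 replicate 1 alone, 7 of the 22 genes carried H3K27me3, against 46.5% of all genes, and with replicate 2 alone 2 did, against 31.6%.

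Of 21 target genes of p53, 20 carried H3K27ac and 6 carried H3K27me3, and the median covered share was 10.1% for H3K27ac and 0.651% for H3K27me3. Ccng1, Bax, Apaf1 and Trp53inp1, which act in growth arrest or cell death, carried H3K27ac alone, from 10.1 at Ccng1 to 17.5 at Trp53inp1 in replicate 1 and from 6.63 to 12.1 in replicate 2. Bbc3, Pmaip1, Fas and Phlda3 carried both marks, with H3K27me3 highest at Pmaip1 (9.96 and 5.77), a gene of a cell death protein. Cdkn1a, which encodes the cell cycle inhibitor p21, had no peak within 1 kb of its ends. Inside the gene it had H3K27ac at 13.0 and 7.20 and H3K27me3 at 4.55 and 3.64.

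Targets of p63 in basal epithelia carried H3K27me3 at 22 of 25 genes and H3K27ac at 19, and 17 carried both. The median covered share was 9.45% for H3K27me3 and 17.4% for H3K27ac. At their ends the keratin genes Krt5 and Krt15, the collagen gene Col17a1 and the laminin gene Lama3 had H3K27me3 in both libraries. It stood at 3.1 to 5.77, with H3K27ac there in at most 1 library. An H3K27ac peak of 1 library was at the ends of Krt5 (3.44), Col17a1 (2.85) and Lama3 (3.23), and none was at Krt15. Inside the gene, H3K27ac was found in both libraries at Lama3 (4.93 and 4.02) and Col17a1 (3.21 and 2.85). Krt14, the keratin partner of Krt5, carried both marks weakly, with H3K27me3 at 3.37 and 4.32 and H3K27ac at 2.89 and 3.32. The integrin genes Itga3, Itga6 and Itgb4 carried H3K27me3 at 3.26 to 5.70 and H3K27ac at 5.67 to 9.16. Zfp750 and Ripk4, of epidermal differentiation, carried H3K27ac at 6.02 and 4.95 and at 12 and 10.3, and Ripk4 also had H3K27me3 in replicate 1 (5.39). Lamb3 had no peak at its ends but had both marks inside, with H3K27me3 at 4.17 and 2.89 and H3K27ac at 4.76 and 3.95. With only peaks whose −log10 q was 2 or more, H3K27me3 was left at 14 of the 25 genes, and at 17.4% of all genes.

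Genes of multiciliated cells, where p73 acts, carried H3K27me3 at 8 of 15 and H3K27ac at 12, and 7 carried both. The median covered share was 3.92% for H3K27me3 and 8.23% for H3K27ac. Foxj1, a ciliogenesis regulator, had H3K27me3 at 5.09 and 3.92 and H3K27ac at 5.23 and 5.13. Mcidas and Ccno, which drive the making of many centrioles, had H3K27me3 at 8.11 and 4.34 and at 7.29 and 5.01, with H3K27ac between 3.28 and 5.08. Deup1, another gene of centriole making, had H3K27me3 in both libraries, at 5.08 and 3.46, and H3K27ac in replicate 1 only (3.73). E2f4, E2f5, Tfdp1 and Rfx2 carried H3K27ac in both libraries and H3K27me3 in at most replicate 1, with H3K27ac at 16 and 7.80 at Tfdp1 and at 12 and 8.65 at E2f5. Rfx3 and Gmnc had no peak at their ends, and inside the gene Rfx3 had H3K27ac at 22 and 20.3 and Gmnc had both marks at 2.80 to 4.37.

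**Figure D5:**
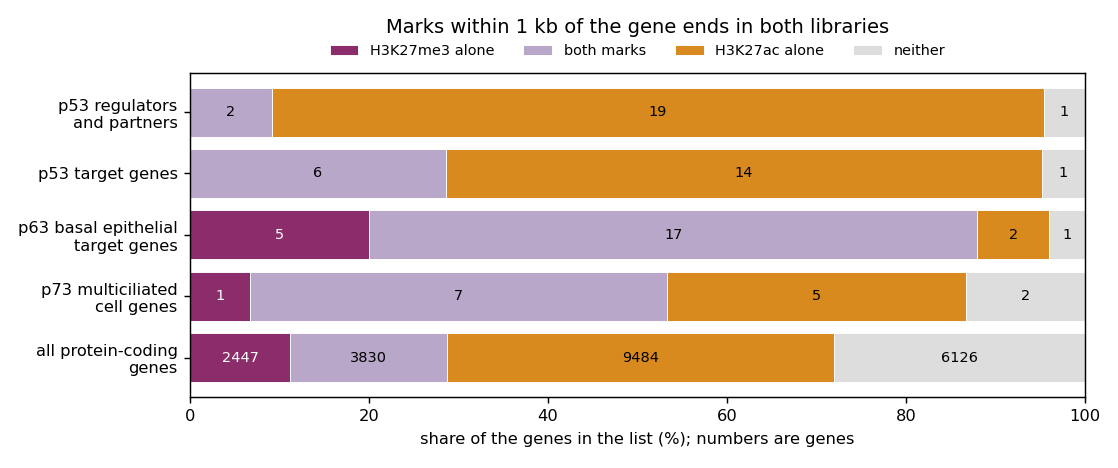
Share of the genes in each list (%) with peaks of both libraries of a mark within 1 kb of either gene end, split into H3K27me3 alone, both marks, H3K27ac alone and neither, with the number of genes in each part. H3K27me3 is at 22 of 25 p63 targets and at 2 of 22 regulators of p53, against 28.7% of all protein-coding genes.

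The labelled cell type was checked by marker genes with the same rule. All 10 GBC genes, Kit, Neurog1 and Mki67 among them, carried H3K27ac, and 7 also carried H3K27me3. Over all protein-coding genes the shares were 60.8% for H3K27ac and 28.7% for H3K27me3. Of 8 horizontal basal cell genes other than Trp63, 8 carried H3K27me3 and 6 carried H3K27ac, and 6 of these 8 are also in the list of p63 targets. H3K27ac was at 5 of 6 sustentacular cell genes, at 5 of 5 ciliated cell genes and at 0 of 6 mast cell genes, whose bearers also have c-Kit. The H3K27ac counts thus do not set GBCs apart from sustentacular or ciliated cells. The part of other cells in the marks at p63 targets and ciliated cell genes was not tested.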

How the data were processed

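The submitters' processing notes name fastp, Bowtie, Picard and MACS2, and GRCm38 (mm10) as the build. Tool versions are not given in the sources used here. Each of the 4 peak lists has 9 columns without a header. Fold enrichment is a linear ratio that the authors deposited for every peak. The −log10 p and −log10 q and the score of each peak are also the authors' deposited values, with q up to 0.1. Replicates are labelled pools of 3 mice. Depth is unknown, so no interval or detection limit is given.

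Peaks were placed on the RefSeq table of GRCm38.p6 with Python 3.11.15. Protein-coding genes of the autosomes and both sex chromosomes served as background. A gene carried a mark where peaks of both libraries overlapped, by at least 1 bp, the 1 kb on each side of either gene end. Such windows miss promoters inside a gene and can hold those of neighbours. The interval code was tested on simulated data. Of the family, Trp53 and Trp73 matched the RefSeq promoter table, with 3 entries.

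The members and lists were chosen with earlier results of these data known. Named genes are the members, their neighbours within 50 kb, the 5 genes most like each member, and up to 4 genes per list with H3K27me3 alone, H3K27ac alone, both or neither, in list order. Alternatives were windows, a −log10 q of at least 2, merging across 3 kb, 500 bp of overlap and each library alone. No test between marks was run.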

Additional observations from a re-analysis of the deposited data

How the results depend on the processing

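The mean covered share of the window depended on the window and on the peak threshold. With the gene alone it was 0.274% for H3K27me3 at Trp63, 32.8% for H3K27ac at Trp53, and 67.3% for H3K27me3 and 4.51% for H3K27ac at Trp73. With 100 kb on each side it was 19.8% for H3K27ac at Trp53 and 35.9% for H3K27me3 at Trp73. At a −log10 q of at least 2 it was 0.0671% for H3K27me3 at Trp63, 10.8% for H3K27ac at Trp53, and 35.8% for H3K27me3 and 5.63% for H3K27ac at Trp73. Under each of these alternatives Trp73 had the highest and Trp63 the lowest mean for H3K27me3, and Trp53 the highest and Trp63 the lowest for H3K27ac. This order of means did not hold in each library. With the gene alone, H3K27me3 replicate 2 covered 0% of Trp53 and 0.349% of Trp63.

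Beyond the midpoint of Trp63, 1 stretch was shared by both libraries of each mark. At a −log10 q of at least 2 it was 0 for H3K27me3 and 1 for H3K27ac. Leaving out 1 replicate gave 1 to 2 peaks for each mark, and a q of at most 0.05, added after seeing the data, gave 1 for each. Bases covered in all 4 libraries fell from 255 to 0 at Trp63, from 1007 to 0 at Trp53 and from 1735 to 0 at Trp73 at a −log10 q of at least 2, also added after seeing the data.

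At that threshold H3K27me3 was at 1 of 22 regulators of p53, 2 of 21 p53 targets and 14 of 25 p63 targets, against 17.4% of all genes. Leaving out 1 replicate gave 2 to 7 regulators of p53 with H3K27me3, where 31.6% and 46.5% of all genes carried it. The cause of these changes beyond the narrower choice of peaks or libraries was not tested. No test was run on these values, paired or unpaired. The labels used here do not say whether equal replicate numbers share a pool of mice.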

Other observations

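The genes next to Trp63 were looked at after its values were seen. Tprg, the nearest protein-coding gene before Trp63 at 260.2 kb, had no peak within 1 kb of either end in any library. P3h2, the gene of a collagen-modifying enzyme 67.2 kb after Trp63, carried H3K27me3 at a fold enrichment of 6.17 and 4.11 and H3K27ac at 5.04 and 4.30 at its ends. Tprgl, the relative of Tprg that lies 17.6 kb from Trp73, had H3K27ac inside the gene at 10.3 in replicate 1 and 9.19 in replicate 2.

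The nearest H3K27me3 peaks before Trp63 lay 418.3 kb away in replicate 1 and 1231.2 kb away in replicate 2, and the nearest H3K27ac peaks 160.4 and 150.4 kb away. After Trp63 the distances were 108.5 and 128.4 kb for H3K27me3 and 62.5 and 122.3 kb for H3K27ac.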
